A study of Arabidopsis thaliana with 38 samples.

Results

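The comparison of H3.1S28A with H3.1 covers 4 of the 38 samples of an Arabidopsis thaliana series, namely 2 RNA libraries of H3.1S28A and 2 of H3.1, with all 27416 genes of their count table. Members were chosen by column, as the libraries that the labels name H3.1 and H31S28A. S28A means that serine 28 is replaced by alanine, here in histone H3.1, and the genotype named H3.1 has the unmutated form. Both genotypes are labelled as seedlings 2 weeks of age grown in soil. The labels do not say how the histone forms were introduced, whether native H3 genes were removed, how many lines or plants were sampled or whether long or short days were used. The extraction text names closed buds in place of seedlings. The series also holds H3.3 and H3.3S28A RNA, with 2 libraries each, and 30 libraries of chromatin immunoprecipitation, not analysed here. Nothing states that the 2 libraries of a genotype came from separate cultures, so the p-values below measure only the spread between these samples.

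Histone H3.1 is the form of H3 placed on DNA behind the replication fork, and serine 28 can be phosphorylated. The neighbouring residue, lysine 27, is methylated by Polycomb repressive complexes, which keep developmental genes silent. Families of the growing cell wall, the cuticle, auxin-driven expansion, pigments and defence, among others, are described here.

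The H3.1 libraries held 20624191 and 22285836 counts, those of H3.1S28A 14679021 and 24449528. Levels are CPM, the count scaled to library size, with trimmed-mean (TMM) factors for single genes, in the order replicate 1 and then 2. All 7 leaf markers were tested and summed to between 51365 and 55291 CPM in the 4 libraries. The 10 root markers summed to 0.628 to 1.16 CPM, 4 of them were at 0 in all 4 libraries and none was abundant enough to test, so root markers were nearly absent although the labels name seedlings. The 13 seed markers summed to 0.409 to 1.16 CPM and the 14 anther and pollen markers to 4.26 to 6.64 CPM. The 4 flower organ markers (AP3, PI, SEP3 and AG) summed to 2.28 and 2.38 CPM in the H3.1 libraries but to 49.9 and 7.57 CPM in H3.1S28A, so the first H3.1S28A library stood apart. In bulk RNA, a change in the number of cells of a type and a change in RNA per cell cannot be told apart.

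The mutated gene cannot be checked from these counts, because a base exchange does not show in a count per gene. The 5 histone H3.1 genes have near-identical coding sequences, so their counts are uncertain. HTR1 was at 112 and 110.3 CPM in the H3.1 libraries and 139 and 142 CPM in H3.1S28A. Its difference was small (log2 fold change 0.34 ± 0.10 SE, adjusted p = 0.0369), and the call was lost on leaving out any of the 4 libraries and with the trend with gene span removed (log2 fold change 0.07, adjusted p = 0.701). The log2 differences of HTR2, HTR3 and HTR9 were 0.04, 0.24 and 0.19, and none passed the test. HTR13 was at 152 and 148 CPM in the H3.1 libraries and 157 and 63.9 CPM in H3.1S28A, so the second H3.1S28A library alone was low, and the difference did not pass the test (log2 fold change -0.45 ± 0.27 SE, adjusted p = 0.293). Without H3.1S28A replicate 1 it was called (-1.23), resting on that low library.

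Which genes changed most, and in both H3.1S28A libraries, was the first question. Of 18974 genes tested, 1562 (8.23%) were higher and 998 (5.26%) lower in H3.1S28A at adjusted p under 0.05 (edgeR quasi-likelihood test, Benjamini-Hochberg adjustment), 13.5% in all, and 5511 had an unadjusted p under 0.05. At least 2-fold changes were fewer, with 229 genes higher and 219 lower. The call was repeated without each library in turn. In all 4 of those fits 547 genes (2.88% of those tested) were still called higher and 179 (0.943%) lower. A gene that kept its call in this way is named below as called without each library. Each of those fits takes its spread from the genotype that keeps both libraries.

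Of the 10 largest such rises, 5 genes had similar levels in both H3.1S28A libraries. EXLA1, an expansin-like protein gene, was at 2.6 and 2.98 CPM in the H3.1 libraries and 15.8 and 16.6 CPM in H3.1S28A. The H3.1S28A libraries lay close together and far above H3.1 (log2 fold change 2.54 ± 0.18 SE, adjusted p = 2.59e-06). TCH4, also called XTH22, encodes a touch-induced xyloglucan endotransglucosylase and was at 8.30 and 7.34 CPM in the H3.1 libraries and 42.8 and 36.6 CPM in H3.1S28A. Its groups did not overlap, as the choice of these genes required and as held for 58.1% of all genes tested (log2 fold change 2.34 ± 0.13 SE, adjusted p = 5.91e-07). AGP21, for an arabinogalactan peptide, was at 29.7 and 29.3 CPM in the H3.1 libraries and 125 and 122 CPM in H3.1S28A, with replicates that nearly coincided in both genotypes (log2 fold change 2.06 ± 0.11 SE, adjusted p = 2.07e-07). GRP5, for a glycine-rich wall protein, was at 5.38 and 6.27 CPM in the H3.1 libraries and 35.8 and 29.0 CPM in H3.1S28A (log2 fold change 2.47 ± 0.15 SE, adjusted p = 1.18e-06). DREB26, for a transcription factor of the AP2/ERF family, was at 0.912 and 1.07 CPM in the H3.1 libraries and 5.58 and 4.84 CPM in H3.1S28A, a rise from a low level in both libraries (log2 fold change 2.38 ± 0.29 SE, adjusted p = 2.72e-04).

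The other 5 of the 10 largest rises were uneven between the H3.1S28A libraries. LTP4, for a lipid transfer protein, was at 0.730 and 0.356 CPM in the H3.1 libraries and 35.2 and 7.08 CPM in H3.1S28A (log2 fold change 5.23 ± 0.69 SE, adjusted p = 4.25e-04). The adjacent and similar LTP3 was at 3.01 and 3.38 CPM in the H3.1 libraries and 35.4 and 6.70 CPM in H3.1S28A (log2 fold change 2.67 ± 0.54 SE, adjusted p = 0.00588), and reads may have been shared between the 2 copies. SEP1 and SEP3, MADS-box factors of floral organs, were at 0.410 and 0.133 CPM in the H3.1 libraries and 13.7 and 2.59 CPM in H3.1S28A, and at 0.912 and 0.889 CPM in the H3.1 libraries and 43.2 and 5.13 CPM in H3.1S28A. CER4, a fatty acyl reductase of wax alcohol synthesis, was at 1.05 and 0.712 CPM in the H3.1 libraries and 7.27 and 3.39 CPM in H3.1S28A (log2 fold change 2.56 ± 0.40 SE, adjusted p = 0.00122). In all 5 the first H3.1S28A library was the higher of the pair, as it was for the flower organ markers, whose part in these results was not tested. Without that library the log2 fold changes of LTP4, LTP3, SEP1, SEP3 and CER4 were 3.70, 1.07, 3.23, 2.5 and 1.94. Without H3.1S28A replicate 2 they were 6.01, 3.47, 5.63, 5.57 and 3.04. Such a fit holds no spread between the H3.1S28A libraries, so a call in it does not measure that gap. LTP4 and SEP1, with few counts in H3.1, also moved without H3.1 replicate 1 (5.83 and 5.81), and SEP1 without H3.1 replicate 2 (4.23). LTP3 was not called by DESeq2 (adjusted p = 0.0863).

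**Figure D1:**
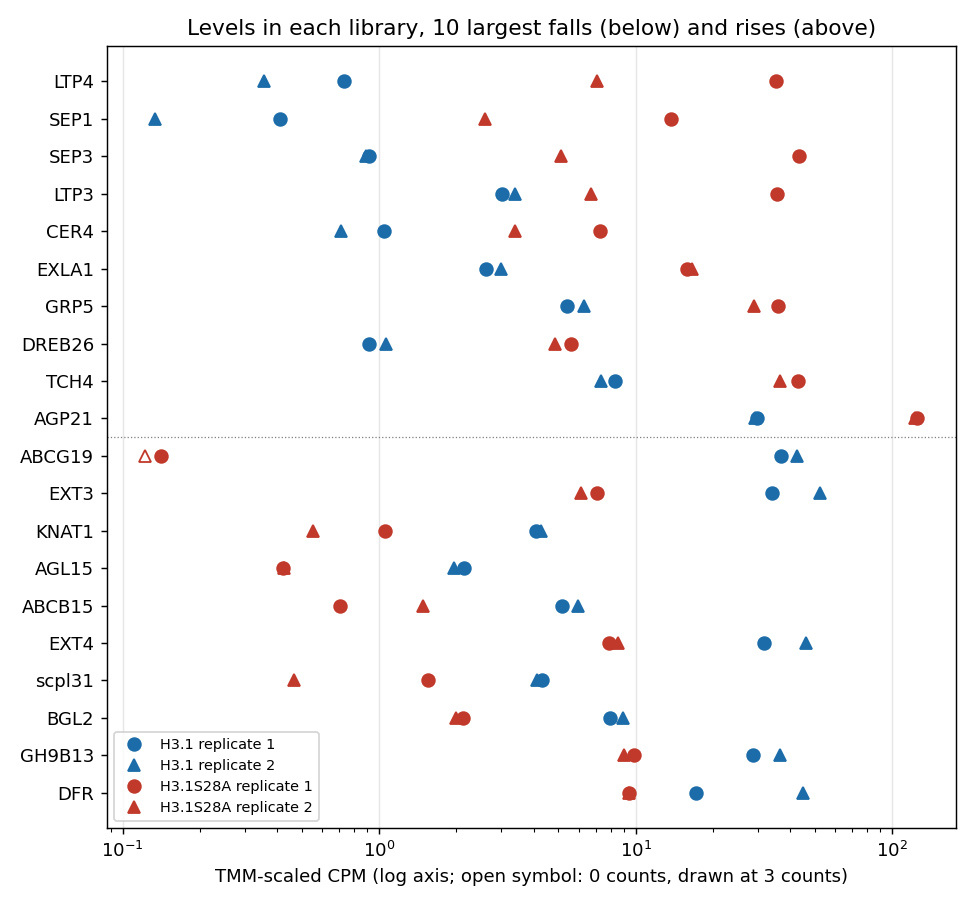
TMM-scaled CPM (log axis) of the 10 largest rises (upper block) and 10 largest falls (lower block) among genes called without each library, with blue for H3.1 and red for H3.1S28A and a circle or triangle for replicate 1 or 2. The genotypes do not overlap for any of the 20 genes, by the rule that chose them, while LTP4, SEP1, SEP3, LTP3, CER4, ABCB15 and scpl31 differ at least 2-fold between the H3.1S28A replicates.

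The deepest fall was that of ABCG19, an ABC transporter gene, with 809 and 960 counts in the H3.1 libraries against 2 and 0 with the exchange. The ratio of depth-scaled counts was 0.00124 (95% exact interval 1.5e-04 to 0.00449, counting error only). The H3.3 and H3.3S28A libraries held 324 to 505 counts, so the near-absence was seen in H3.1S28A alone among the 4 genotypes. It was also the only gene with at most 3 counts in all in either genotype and at least 50 counts in each library of the other. Of its neighbours in the RefSeq gene order, those with enough counts to test were not called. Among them were TT5 with 348 and 523 counts against 244 and 448, and AT3G55140 with 397 and 433 against 344 and 559. AT3G55140 lay near the threshold (log2 fold change 0.36 ± 0.12 SE, edgeR adjusted p = 0.0588).

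The next deepest fall was that of EXT3, for a hydroxyproline-rich protein that crosslinks the wall, at 34.0 and 52.3 CPM in the H3.1 libraries and 7.06 and 6.15 CPM in H3.1S28A (log2 fold change -2.72 ± 0.19 SE, adjusted p = 2.83e-06). EXT4 was at 31.8 and 46.3 CPM in the H3.1 libraries and 7.91 and 8.57 CPM in H3.1S28A (log2 fold change -2.24 ± 0.17 SE, adjusted p = 6.61e-06). Both genes were low in each H3.1S28A library, and because extensins are repetitive, reads between them may be mixed. KNAT1, a homeobox factor of the shoot meristem and stem, was at 4.10 and 4.27 CPM in the H3.1 libraries and 1.06 and 0.551 CPM in H3.1S28A (log2 fold change -2.45 ± 0.35 SE, adjusted p = 6.86e-04). AGL15, a MADS-box factor, was at 2.14 and 1.96 CPM in the H3.1 libraries and 0.424 and 0.424 CPM in H3.1S28A (log2 fold change -2.26 ± 0.43 SE, adjusted p = 0.00459). ABCB15, another ABC transporter gene, was at 5.15 and 5.96 CPM in the H3.1 libraries and 0.706 and 1.48 CPM in H3.1S28A (log2 fold change -2.26 ± 0.31 SE, adjusted p = 6.07e-04). The serine carboxypeptidase-like gene scpl31 was at 4.33 and 4.14 CPM in the H3.1 libraries and 1.55 and 0.467 CPM in H3.1S28A (log2 fold change -2.20 ± 0.41 SE, adjusted p = 0.00398), with the lower value in the second H3.1S28A library. Without that library the scpl31 change was -1.44, and without the first it was -3.17. ABCB15 was at -2.97 without H3.1S28A replicate 2. BGL2, the beta-1,3-glucanase PR2 of pathogen defence, was at 7.94 and 8.94 CPM in the H3.1 libraries and 2.12 and 1.99 CPM in H3.1S28A (log2 fold change -2.04 ± 0.22 SE, adjusted p = 1.19e-04). GH9B13, a glycosyl hydrolase of the endoglucanase family, was at 28.6 and 36.6 CPM in the H3.1 libraries and 9.81 and 9.03 CPM in H3.1S28A (log2 fold change -1.80 ± 0.15 SE, adjusted p = 1.11e-05). The tenth, DFR of the anthocyanin pathway, is given with its pathway below.

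Several families with raised members consist of short genes, so the relation to gene length is given first. Across 18780 tested genes with a RefSeq span, Spearman rho of the log2 fold change with span was -0.218, as a description across genes, which are not independent replicates. In the shortest quintile of genes (102 to 1619 bases) the median log2 fold change was 0.15, 17.3% were higher and 4.01% lower. In the longest quintile (3668 to 27265 bases) it was -0.09, with 2.5% higher and 6.26% lower. With the trend of each library removed, rho was 0.01, the calls were 1272 higher (6.70%) and 988 lower (5.21%), and the shortest quintile had 10.4% higher and 7.49% lower. The part of gene span in the family results was not tested, and counts with the trend removed are given for lists in which the higher or lower count moved by 2 or more, and for some others. Counts in the lists below are to be read against 8.23% higher and 5.26% lower over all tested genes. Shares near these are no result about a list.

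**Figure D2:**
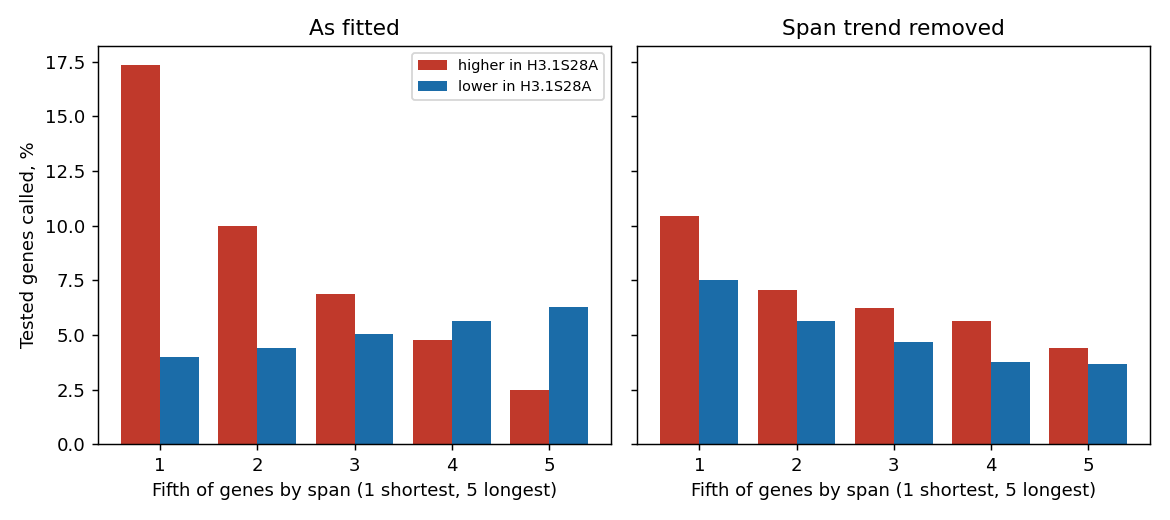
Share of tested genes called higher (red) or lower (blue) in H3.1S28A in quintiles of genes by span, as fitted (left) and with each library's trend with span removed (right). Higher calls fall from 17.3% in the shortest quintile to 2.5% in the longest as fitted, and from 10.4% to 4.39% with the trend removed.

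Metallothioneins, small cysteine-rich proteins that bind metals, were higher throughout. All 5 tested of 8 were called higher, 4 of them without each library, with a median log2 fold change of 0.88 against -0.01 over all genes. MT3 was at 272 and 263 CPM in the H3.1 libraries and 785 and 723 CPM in H3.1S28A (log2 fold change 1.5 ± 0.10 SE, adjusted p = 2.10e-06), and MT1C at 15.6 and 12.8 CPM in the H3.1 libraries and 33.7 and 22.9 CPM in H3.1S28A (log2 fold change 0.99 ± 0.17 SE, adjusted p = 0.00253). With the span trend removed 4 were called and the median was 0.70. Of 12 glycine-rich protein genes tested, 8 were higher and none lower, 7 of them without each library (median 0.73). They include wall proteins such as GRP5 and GRP23 and RNA-binding proteins such as GRP2 and CCR1, also called GRP8. GRP23 was at 139 and 135 CPM in the H3.1 libraries and 420.0 and 376 CPM in H3.1S28A (log2 fold change 1.54 ± 0.10 SE, adjusted p = 2.10e-06). The same number, 8, was called with the span trend removed.

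Among the wall families, the xyloglucan endotransglucosylase/hydrolases (XTH), which cut and rejoin the xyloglucan that tethers cellulose, had mostly rises among their calls. Of 22 tested of 33, 11 were higher and 2 lower, 7 and 1 without each library, and the median log2 fold change was 0.74. With the span trend removed 10 were higher and 2 lower. XTH24 was at 13.7 and 19.4 CPM in the H3.1 libraries and 66.1 and 35.7 CPM in H3.1S28A (log2 fold change 1.61 ± 0.23 SE, adjusted p = 7.38e-04), with the H3.1S28A libraries well apart. XTH4, XTH6, XTH9, XTH15 and EXGT-A3 (XTH27) also rose without each library, with log2 fold changes of 0.77, 1.33, 0.77, 1.24 and 1.1; these were chosen after their values were seen. XTH31 went the other way, at 114 and 95.3 CPM in the H3.1 libraries and 39.6 and 48.7 CPM in H3.1S28A (log2 fold change -1.24 ± 0.13 SE, adjusted p = 9.09e-05).

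Expansins, which loosen the wall, were split, with 5 higher and 5 lower of 21 tested (3 and 5 with the span trend removed). EXPA5 rose from 49.2 and 44.9 CPM in the H3.1 libraries to 74.6 and 69.4 CPM in H3.1S28A (log2 fold change 0.61 ± 0.11 SE, adjusted p = 0.00274). EXPA4 fell from 43.6 and 50.2 CPM in the H3.1 libraries to 22.9 and 25.4 CPM in H3.1S28A (log2 fold change -0.95 ± 0.12 SE, adjusted p = 2.76e-04) and EXPA15 from 30.6 and 28.7 CPM in the H3.1 libraries to 11.4 and 19.9 CPM in H3.1S28A (log2 fold change -0.90 ± 0.19 SE, adjusted p = 0.0071). Of 8 extensin and proline-rich protein genes tested, 3 fell and 1 rose, all called without each library. The riser was LRX3, a leucine-rich repeat extensin that joins wall and membrane, at 41.0 and 52.1 CPM in the H3.1 libraries and 80.0 and 87.5 CPM in H3.1S28A (log2 fold change 0.85 ± 0.13 SE, adjusted p = 8.81e-04).

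Arabinogalactan proteins are heavily glycosylated proteins of the wall and outer membrane, and 10 of 38 tested were higher and 4 lower. The median was 0.05, and with the span trend removed 7 were higher. AGP12, another short arabinogalactan peptide, was at 33.7 and 35.7 CPM in the H3.1 libraries and 112 and 115 CPM in H3.1S28A (log2 fold change 1.71 ± 0.11 SE, adjusted p = 1.18e-06). AGP31 was at 106 and 133 CPM in the H3.1 libraries and 40.5 and 50.1 CPM in H3.1S28A (log2 fold change -1.39 ± 0.14 SE, adjusted p = 6.44e-05) and AGP1 at 56.0 and 55.7 CPM in the H3.1 libraries and 32.0 and 31.5 CPM in H3.1S28A (log2 fold change -0.81 ± 0.10 SE, adjusted p = 3.94e-04), both lower in each H3.1S28A library.

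The cellulose synthase family, including the CSLA enzymes that make mannan, had 7 higher and 3 lower of 33 tested. CSLA03 rose from 14.0 and 18.1 CPM in the H3.1 libraries to 35.8 and 31 CPM in H3.1S28A (log2 fold change 1.05 ± 0.14 SE, adjusted p = 4.49e-04) and ATCSLA09 from 41.2 and 44.5 CPM in the H3.1 libraries to 66.6 and 65.8 CPM in H3.1S28A (log2 fold change 0.63 ± 0.10 SE, adjusted p = 0.00202), while CSLA02 fell from 36.9 and 39.4 CPM in the H3.1 libraries to 25.8 and 25.2 CPM in H3.1S28A (log2 fold change -0.58 ± 0.11 SE, adjusted p = 0.00355). Of 10 pectin methylesterases 2 rose and 1 fell. None kept its call without each library, PME61 (0.60) being lost without either H3.1 library. Of 20 lignin genes only PAL2 (0.52) and CAD5 (0.51) were called, both higher, and neither held without H3.1 replicate 1. The class III peroxidases PRXCA and PRXCB, close copies whose reads may be mixed, fell (-1.19 and -0.52), PRXCA without each library. They were the 2 called of 5 tested.

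**Figure D3:**
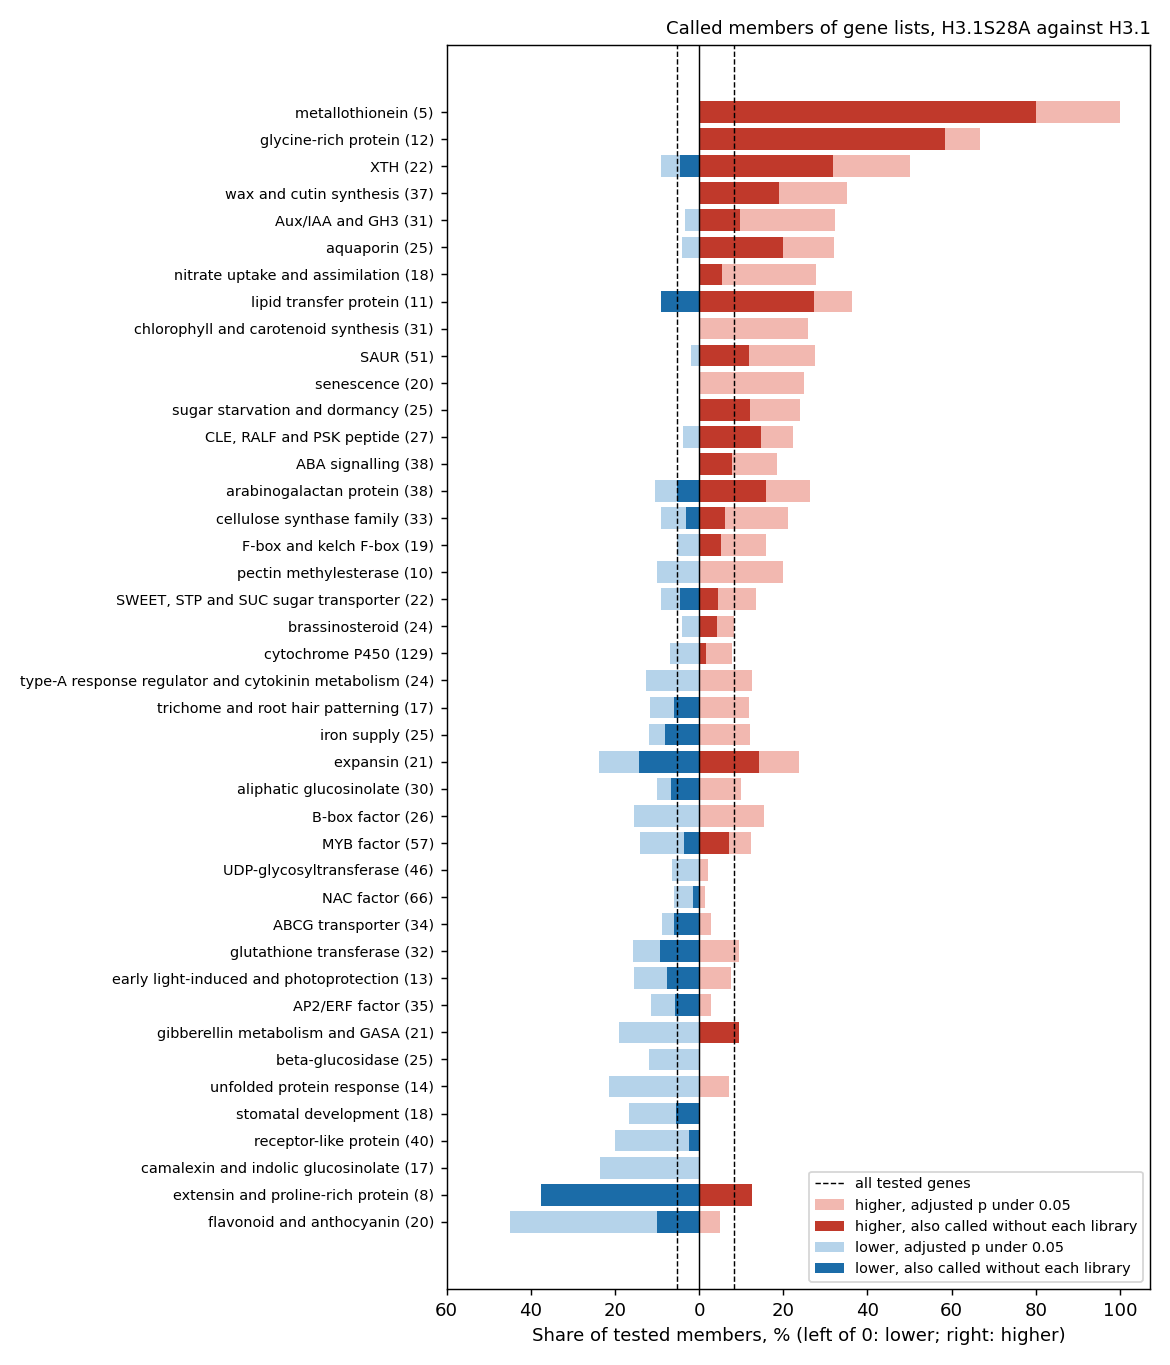
Share of the tested members of each gene list called higher (red, right) or lower (blue, left) in H3.1S28A, with dark bars for members called without each library, the number tested in brackets and dashed lines at the shares over all tested genes (8.23% higher, 5.26% lower). Lists with at least 3 called members are shown: all 5 tested metallothioneins are higher, and the flavonoid and extensin lists have the largest lower shares.

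The called genes of wax and cutin, the lipids of the cuticle, were all higher. Of 37 tested, 13 were higher and none lower, 7 without each library, and the median was 0.23. With the span trend removed 11 were higher. Beside CER4, KCS12, which encodes a 3-ketoacyl-CoA synthase that lengthens fatty acids, was at 10.2 and 11.7 CPM in the H3.1 libraries and 25.6 and 27.9 CPM in H3.1S28A. Its replicates lay close in both genotypes (log2 fold change 1.29 ± 0.13 SE, adjusted p = 8.08e-05). KCS1, KCS3, KCS9, CER3 and HTH rose less, with log2 fold changes of 0.82, 0.72, 0.75, 0.75 and 0.56, all without each library; these were chosen after their values were seen. Flower organs also make these lipids, and the flower organ markers differed between the H3.1S28A libraries. Without H3.1S28A replicate 1, the library with the higher markers, the median of the list was 0.29. H3.1S28A replicate 2 also had raised markers, at 7.57 CPM against 2.28 and 2.38 CPM in the H3.1 libraries. The part of flower organs in these rises was not tested. Lipid transfer proteins, which bind lipids outside the cell, had 4 higher and 1 lower of 11 tested. LTP2 fell from 41.2 and 39.5 CPM in the H3.1 libraries to 17.9 and 22.9 CPM in H3.1S28A (log2 fold change -0.97 ± 0.13 SE, adjusted p = 4.07e-04), against the direction of LTP3 and LTP4. Of 34 ABCG transporters, 3 fell and 1 rose (3 and 3 with the span trend removed), and ABCG8 was at 10.1 and 9.70 CPM in the H3.1 libraries and 3.74 and 4.33 CPM in H3.1S28A (log2 fold change -1.28 ± 0.18 SE, adjusted p = 7.43e-04).

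Aquaporins, the water channels of the plasma membrane and vacuole, had 8 higher and 1 lower of 25 tested, 5 higher without each library (median 0.25). PIP1;5 of the plasma membrane was at 62.7 and 80.3 CPM in the H3.1 libraries and 166 and 149.5 CPM in H3.1S28A (log2 fold change 1.14 ± 0.13 SE, adjusted p = 1.41e-04). DELTA-TIP of the vacuole was at 402 and 517 CPM in the H3.1 libraries and 859 and 741 CPM in H3.1S28A (log2 fold change 0.80 ± 0.13 SE, adjusted p = 0.00131). The groups did not overlap for either gene, as for 58.1% of all genes tested.

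The calls in auxin-linked families were mostly rises. SAUR genes encode small proteins of cell expansion, many of them induced by auxin. Of 51 tested of 80, 14 were higher and 1 lower, 6 higher without each library, with a median log2 fold change of 0.54. With the span trend removed 8 were higher and the median was 0.32. The median span of the tested SAUR genes was 839 bases. As fitted 27.5% of them were higher, against 17.3% in the shortest quintile of all genes. With the trend removed that quintile had 10.4% higher. AT1G72430 (SAUR78) was at 17.6 and 25.0 CPM in the H3.1 libraries and 48.5 and 43.9 CPM in H3.1S28A (log2 fold change 1.12 ± 0.15 SE, adjusted p = 4.13e-04). AT1G29500 (SAUR66), which lies in a cluster of near-copies, was at 7.07 and 6.09 CPM in the H3.1 libraries and 13.1 and 14.3 CPM in H3.1S28A (log2 fold change 1.06 ± 0.16 SE, adjusted p = 0.00113). Of 31 Aux/IAA repressors and GH3 auxin-conjugating enzymes tested, 10 were higher and 1 lower (10 and 3 with the span trend removed), 3 higher without each library. SHY2, which is IAA3, was at 25.4 and 24.5 CPM in the H3.1 libraries and 40.5 and 40.7 CPM in H3.1S28A (log2 fold change 0.70 ± 0.10 SE, adjusted p = 8.92e-04), and IAA2 rose from 28.0 and 29.5 CPM in the H3.1 libraries to 43.1 and 45.6 CPM in H3.1S28A (0.62).

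Of 21 genes of gibberellin metabolism and of the GASA peptides, 2 rose and 4 fell. The risers were GASA1 at 41.6 and 41.5 CPM in the H3.1 libraries and 78.7 and 81.6 CPM in H3.1S28A (log2 fold change 0.95 ± 0.10 SE, adjusted p = 1.30e-04) and GASA6 at 219.7 and 193 CPM in the H3.1 libraries and 405 and 326 CPM in H3.1S28A (log2 fold change 0.82 ± 0.12 SE, adjusted p = 8.22e-04), and none of the falls held without each library. Abscisic acid signalling had 7 of 38 higher and none lower. They included the phosphatase PP2CA (0.69) and the receptor PYL1 (0.67), both called without each library. Cytokinin genes had 3 higher and 3 lower of 24 (4 and 1 with the span trend removed), none held in all 4 fits, and CKX6, a cytokinin oxidase, was lost without H3.1 replicate 2. Brassinosteroid genes had 2 higher and 1 lower of 24, with TCH4 among them. These shares, 8.33% and 4.17%, were near the 8.23% and 5.26% over all tested genes. Among secreted peptides of the CLE, RALF and PSK families 6 of 27 were higher and 1 lower, though the median over the tested members was -0.17. RALFL33 was at 10.4 and 9.52 CPM in the H3.1 libraries and 28.0 and 24.1 CPM in H3.1S28A (log2 fold change 1.38 ± 0.14 SE, adjusted p = 6.80e-05) and RALFL24 at 10.6 and 10.4 CPM in the H3.1 libraries and 25.9 and 26.2 CPM in H3.1S28A (log2 fold change 1.31 ± 0.13 SE, adjusted p = 5.49e-05).

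The called genes known to respond to low sugar were all higher. Of 25 genes of sugar starvation and bud dormancy tested, 6 rose and none fell, 3 without each library (median 0.31). SEN1, a dark-induced gene, was at 6.07 and 8.09 CPM in the H3.1 libraries and 20.5 and 24.7 CPM in H3.1S28A (log2 fold change 1.68 ± 0.17 SE, adjusted p = 7.11e-05). DIN10, a raffinose synthase-like gene induced in darkness, was at 60.6 and 86.2 CPM in the H3.1 libraries and 226 and 179 CPM in H3.1S28A (log2 fold change 1.46 ± 0.16 SE, adjusted p = 1.23e-04). TPS8, a trehalose-phosphate synthase-like protein gene, rose from 53.6 and 53.5 CPM in the H3.1 libraries to 98.6 and 86.8 CPM in H3.1S28A (log2 fold change 0.79 ± 0.11 SE, adjusted p = 5.51e-04). With ATTPPA (0.45), a trehalose-phosphate phosphatase gene not called without either H3.1 library, it made up the 2 called of 16 trehalose-phosphate genes, of which 4 were higher with the span trend removed. Of 22 sugar transporters 3 were higher and 2 lower. The monosaccharide importer STP1 rose from 40.5 and 49.9 CPM in the H3.1 libraries to 69.7 and 74.7 CPM in H3.1S28A (0.68), and the sucrose exporter SWEET12 fell from 27.1 and 39.3 CPM in the H3.1 libraries to 17.6 and 17.1 CPM in H3.1S28A (-0.93), both called without each library. Starch genes had 1 higher and 1 lower of 34, neither of which held without H3.1 replicate 1. Senescence genes had 5 higher of 20 (3 with the span trend removed), and none held without H3.1 replicate 1. They included NYC1 (0.60), a chlorophyll b reductase.

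Of 18 nitrate genes 5 were higher, with NIR1, nitrite reductase, at 155 and 167 CPM in the H3.1 libraries and 222 and 279.7 CPM in H3.1S28A (log2 fold change 0.64 ± 0.12 SE, adjusted p = 0.00398). In iron supply 3 were higher and 3 lower of 25, but 4 and 10 without H3.1S28A replicate 1 (median -0.37) and 7 and 3 without H3.1S28A replicate 2. The nicotianamine synthase genes NAS4, at 36.9 and 37.2 CPM in the H3.1 libraries and 22.8 and 18.1 CPM in H3.1S28A (log2 fold change -0.87 ± 0.12 SE, adjusted p = 7.29e-04), and NAS1, at 30.1 and 29.4 CPM in the H3.1 libraries and 20.8 and 20.2 CPM in H3.1S28A (log2 fold change -0.54 ± 0.11 SE, adjusted p = 0.0067), fell. In sulfur supply APR2 (0.62) rose without each library and LSU2 (0.75) was lost without H3.1 replicate 1, of 15 tested. Of 15 phosphate genes only PHO1 (-0.82) was called, and not without H3.1 replicate 2.

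The called flavonoid and anthocyanin genes were mostly lower in the fit of all 4 libraries. Of 20 tested, 9 were lower and 1 higher, with a median log2 fold change of -0.35. DFR, dihydroflavonol reductase, was at 17.1 and 44.9 CPM in the H3.1 libraries and 9.39 and 9.42 CPM in H3.1S28A (log2 fold change -1.72 ± 0.32 SE, adjusted p = 0.00364). TT4, chalcone synthase, was at 166 and 276 CPM in the H3.1 libraries and 115 and 124 CPM in H3.1S28A (log2 fold change -0.89 ± 0.18 SE, adjusted p = 0.00547). UF3GT, a glycosyltransferase of anthocyanins, was at 4.47 and 13.2 CPM in the H3.1 libraries and 2.19 and 2.97 CPM in H3.1S28A (log2 fold change -1.75 ± 0.40 SE, adjusted p = 0.0115). In all 3 the second H3.1 library was higher than the first, while the H3.1S28A libraries lay close to each other and below both. Without that library their log2 fold changes were -0.87, -0.48 and -0.77, UF3GT no longer called. Then 2 of the list were called lower, and DESeq2 called 2 lower with all 4 libraries, neither DFR (adjusted p = 0.0818) nor TT4 (0.107) among them. ELIP1, an early light-induced protein gene, was at 16.6 and 28.0 CPM in the H3.1 libraries and 8.82 and 9.08 CPM in H3.1S28A (log2 fold change -1.31 ± 0.21 SE, adjusted p = 0.00133) and kept its call without each library. It was 1 of 2 lower and 1 higher of 13 photoprotection genes. Chlorophyll and carotenoid synthesis went the other way, with 8 of 31 higher and none lower, but none held without H3.1 replicate 1. BETA-OHASE 2, a carotene hydroxylase, was among these (0.64).

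Lists of defence and detoxification held mostly falls, and the share that held without each library differed between lists. It was 1 of 8 for receptor-like proteins and 0 of 4 for camalexin and indolic glucosinolates. For aliphatic glucosinolates it was 2 of 3 and for glutathione transferases 3 of 5, against 17.9% of all lower calls. Of 40 receptor-like protein genes tested 8 were lower and none higher, with a median of -0.38. RLP34, at 10.3 and 9.38 CPM in the H3.1 libraries and 5.37 and 3.73 CPM in H3.1S28A (log2 fold change -1.14 ± 0.20 SE, adjusted p = 0.00313), was the 1 that kept its call. Camalexin and indolic glucosinolate genes had 4 of 17 lower, among them the factor MYB34 (-0.60), and none held in all 4 fits. In aliphatic glucosinolate synthesis the activators MYB28, at 104 and 100.4 CPM in the H3.1 libraries and 74.6 and 61.8 CPM in H3.1S28A (log2 fold change -0.58 ± 0.11 SE, adjusted p = 0.00518), and MYB29, at 40.3 and 39.8 CPM in the H3.1 libraries and 30.2 and 24.1 CPM in H3.1S28A (log2 fold change -0.57 ± 0.12 SE, adjusted p = 0.00818), fell. In the remainder of that list 3 were higher, none of them in all 4 fits, and 1 more was lower, of 30 tested (1 and 3 with the span trend removed). The balance rested on single libraries: it was 1 higher and 10 lower without H3.1S28A replicate 1 (median -0.20), 11 and 2 without H3.1S28A replicate 2 (median 0.33), and 0 and 4 without H3.1 replicate 1. Glutathione transferases had 3 higher and 5 lower of 32 (0 and 6 with the span trend removed). GSTF6, at 30.7 and 39.0 CPM in the H3.1 libraries and 13.2 and 14.8 CPM in H3.1S28A (log2 fold change -1.31 ± 0.14 SE, adjusted p = 1.06e-04), and its close copy GSTF7, at 7.39 and 5.51 CPM in the H3.1 libraries and 2.47 and 2.80 CPM in H3.1S28A (log2 fold change -1.28 ± 0.24 SE, adjusted p = 0.00398), fell, with reads that may be mixed. The cysteine-rich receptor kinase gene EP1 (CRK9) fell (-1.26) and CRK21 rose (0.48), the latter not without H3.1 replicate 1, of 29 tested. No gene was called among 6 wall-associated kinases, 5 plant defensins and 13 hypoxia genes, with 2, 0 and 3 at an unadjusted p under 0.05 by edgeR and 0 called by DESeq2.

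MYB factors had 7 higher and 8 lower of 57 tested. The related MYB70 and MYB77 rose. MYB70 was at 5.93 and 6.58 CPM in the H3.1 libraries and 18.4 and 16.3 CPM in H3.1S28A (log2 fold change 1.46 ± 0.16 SE, adjusted p = 1.23e-04). MYB77 was at 7.94 and 6.80 CPM in the H3.1 libraries and 18.1 and 15.9 CPM in H3.1S28A (log2 fold change 1.20 ± 0.16 SE, adjusted p = 4.26e-04). Neither overlapped between genotypes, as for 58.1% of all genes tested. The list of AP2/ERF factors, which covers part of the family and does not hold DREB26, had 1 higher and 4 lower of 35, with a median of -0.31. With the span trend removed 0 were higher and 9 lower. ERF15 was at 7.94 and 8.05 CPM in the H3.1 libraries and 3.95 and 4.50 CPM in H3.1S28A (log2 fold change -0.91 ± 0.19 SE, adjusted p = 0.00757) and RAP2.7, a repressor of flowering, at 143 and 119 CPM in the H3.1 libraries and 67.5 and 91.8 CPM in H3.1S28A (log2 fold change -0.71 ± 0.14 SE, adjusted p = 0.00548). Of 66 NAC factors 1 was higher and 4 lower, NAC082 (-0.57) without each library. Of 46 WRKY factors WRKY14 (-2.53) and WRKY17 (-0.50) were lower, neither without H3.1 replicate 2. B-box factors had 4 higher and 4 lower of 26 (3 and 6 with the span trend removed), none held in all 4 fits, and BBX13 (-0.65) had the smallest adjusted p.

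In epidermal development SPCH, the factor that starts the stomatal lineage, was at 17.4 and 18.1 CPM in the H3.1 libraries and 7.20 and 11 CPM in H3.1S28A (log2 fold change -0.94 ± 0.18 SE, adjusted p = 0.00448). It was 1 of 3 stomatal genes lower of 18, and with the span trend removed 1 was called. ZFP8, a zinc finger factor of trichome formation, fell from 40.2 and 44.1 CPM in the H3.1 libraries to 27.2 and 27.7 CPM in H3.1S28A (log2 fold change -0.62 ± 0.11 SE, adjusted p = 0.00259), among 2 higher and 2 lower of 17. Replication genes of the E2F and MCM list had no call among 25 tested by edgeR, 1 at an unadjusted p under 0.05, and 0 by DESeq2.

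Large enzyme families and stress lists had few calls that held without each library. Cytochromes P450 had 10 higher and 9 lower of 129 (8 and 8 with the span trend removed), and only CYP71B12 (0.94) and CYP71B2 (0.65) held in all 4 fits. The P450 shares, 7.75% higher and 6.98% lower, were near the 8.23% and 5.26% over all tested genes. UDP-glycosyltransferases had 1 higher and 3 lower of 46. Beta-glucosidases had 3 lower of 25, with BGLU7 (-1.61) lost without H3.1 replicate 2. Heat shock genes had HSFB4 (-0.94) lower and HSP90.1 (0.92) higher of 34. The unfolded protein list had 1 higher and 3 lower of 14, PDIL1-2 (-0.47) being lost without H3.1 replicate 2. Among antioxidant enzymes APX1 (0.40) and FSD1 (0.88) were higher, neither without H3.1S28A replicate 2, of 18. FSD1, iron superoxide dismutase, was at 203 and 186 CPM in the H3.1 libraries and 253 and 461 CPM in H3.1S28A, high in that library alone. MLP43, a major latex protein gene, rose (0.84) as the 1 call among 12 of its list, which had 1 higher and 2 lower with the span trend removed. AT1G80440, a kelch F-box protein gene, rose as well (0.95), in a list with 3 higher and 1 lower of 19, and both kept their calls without each library. The late embryogenesis list had LEA14 (0.49) and AT2G44060 (0.39) higher of 5, neither in any fit without an H3.1 library.

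How far the calls rest on single libraries was examined last. Of the 2560 calls 726 (28.4%) were made in all 4 fits that leave out a library, 35.0% of the higher and 17.9% of the lower calls. Another 637 were made in 3 of the 4, 426 in 2, 694 in 1 and 77 in none. Leaving out H3.1 replicate 1 gave 1324 calls, which held 48.1% of the 2560, and leaving out H3.1 replicate 2 gave 1152, which held 42.0%. Without H3.1S28A replicate 1 there were 2428 calls, which held 73.6%. Without H3.1S28A replicate 2 there were 3480, which held 84.8%, and 1271 of these were not called with all 4 libraries, the lone remaining library being assumed to vary like the H3.1 pair. The direction that held more calls also turned in some lists. Without H3.1 replicate 1 there were 2 higher and 4 lower in the cellulose synthase family, 3 and 8 among cytochromes P450, and 6 and 3 among MYB factors. Pectin methylesterase genes had 0 higher and 1 lower when 1 of the H3.1 libraries was left out, whichever it was. Gibberellin and GASA genes had 2 higher and 0 lower without H3.1 replicate 2. Sugar transporters had 1 higher and 2 lower, and F-box genes 1 and 2, without H3.1S28A replicate 1. Between replicates, 44 and 60 of 18276 genes differed at least 2-fold in either direction in H3.1. In H3.1S28A 170 genes were at least 2-fold higher in replicate 1 and 49 in replicate 2. Of the 726 genes, 143 were at least 2-fold higher and 72 at least 2-fold lower, 708 were also called with the span trend removed and 712 by DESeq2.

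**Figure D4:**
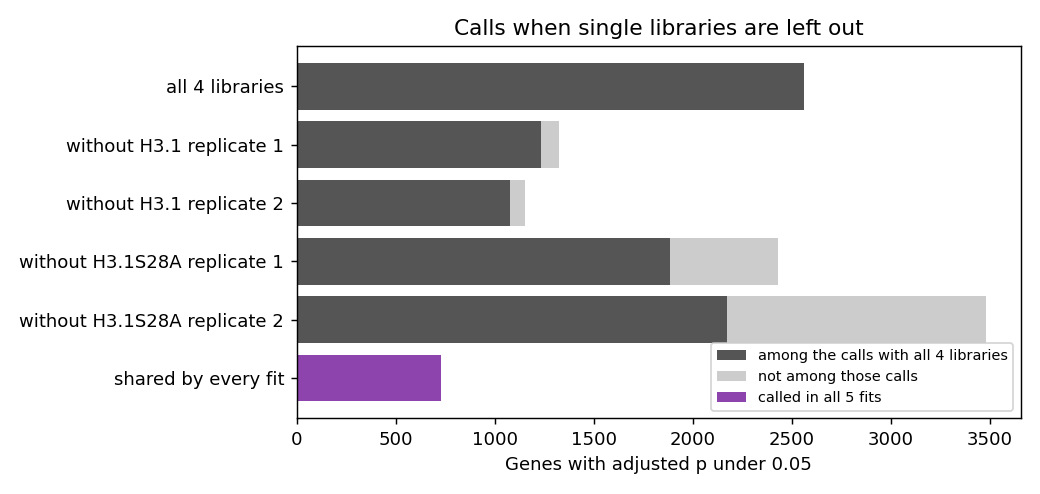
Genes with adjusted p under 0.05 with all 4 libraries and with 1 library left out, dark where the gene was among the 2560 calls made with all 4 and light where it was not, and in purple the 726 genes called in every fit. Leaving out an H3.1 library reduces the calls to 1324 or 1152, and leaving out H3.1S28A replicate 2 raises them to 3480.

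The same exchange in H3.3 allows a test, for single genes, of whether these effects were particular to H3.1S28A. That pair was deposited in a separate table, and in its own fit 28.8% of genes were higher and 29.7% lower. Family lists were not tested for a difference. In H3.3S28A metallothioneins, SAUR genes and aquaporins had 6, 41 and 18 higher and 0 lower (medians 1.97, 1.08 and 0.61). The cellulose synthase family and chlorophyll and carotenoid synthesis had medians of -0.35 and -0.30 there. These lists were chosen after their values were seen. The interaction contrast over all 8 libraries, in which a level difference between tables cancels, was called for 7829 of 20052 genes (39.0%). TCH4 and DREB26 rose in H3.1S28A and fell in H3.3S28A (log2 fold changes there of -1.51 and -1.88). EXLA1, AGP21 and GRP5 rose in both, and less in H3.3S28A (0.75, 1.00 and 1.48). Unmutated H3.3 libraries were at 46.4 and 67.5 CPM for TCH4, 6.24 and 6.97 CPM for DREB26 and 13.4 and 13.8 CPM for EXLA1. For AGP21 they were at 60.3 and 62.7 CPM, and for GRP5 at 9.54 and 8.51 CPM. For each of these genes H3.3 lay above H3.1, with levels scaled within each table. For TCH4 and DREB26 it also lay above H3.1S28A. The difference between the unmutated genotypes was not tested. EXT3 and BGL2 fell in H3.1S28A and rose in H3.3S28A (1.34 and 3.37). Their H3.3 and H3.3S28A levels were 12.6 and 8.72 CPM in the H3.3 libraries and 30.5 and 23.4 CPM in H3.3S28A for EXT3, and 9.24 and 5.59 CPM in the H3.3 libraries and 95.2 and 58.1 CPM in H3.3S28A for BGL2. For LTP4, SEP1, SEP3, LTP3, CER4 and ABCB15 the 2 effects had the same sign, and their difference did not pass the test (interaction adjusted p = 0.795, 0.699, 0.0748, 0.276, 0.569 and 0.107), which does not show that they are equal. Without H3.1S28A replicate 1 the difference was called for SEP3 (-6.71, adjusted p = 3.73e-07), LTP3 (-2.72, 7.72e-06), SEP1 (-2.33, 0.0232) and ABCB15 (1.49, 0.0250). SEP3 was also called by DESeq2 (0.0122), without H3.1S28A replicate 2 (2.34e-05), with the replicate block (0.0279) and without a count filter (6.33e-05), and LTP3 without a count filter (0.0278).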

How the data were processed

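Poly(A)-selected RNA was analysed from 2 H3.1 and 2 H3.1S28A libraries, with 2 H3.3 and 2 H3.3S28A libraries for the difference between the exchanges. The authors deposited whole-number counts per gene, with no normalization, in a table for each pair of genotypes. Columns were assigned by name. The numbers 11 and 12 in the H3.1 column names were read as replicates 1 and 2, and the added word new in the H3.1S28A names is unexplained. HISAT2, Subread, DESeq2 and the build TAIR10 were used, per the submitters' processing notes. Not given in the sources used here are versions, annotation, strand setting and how reads with several matches were treated, so close copies and overlapping genes are uncertain.

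Total counts ran from 14679021 to 24449528 in the 4 libraries, and a count of 0 allows up to 0.123 to 0.204 CPM (3 counts of the library total). Floors and intervals cover counting error only. Genes were tested with edgeR 4.0.16 in R 4.3.3 (TMM, filterByExpr by group, glmQLFit, glmQLFTest). Benjamini-Hochberg adjustment ran over all 18974 tested genes, with 0.05 as threshold. Dividing the size of a log2 fold change by the root of its F statistic gave its SE. The interaction was tested on 20052 genes of all 8 libraries. Alternatives were DESeq2 1.42.0 and its size factors, no count filter, a replicate block, the gene span trend removed by offsets, organelle genes left out, all 8 libraries in a single fit and each library left out. On simulated counts (18815 genes, 200 of them changed 4-fold) the edgeR test recovered 99.5% of the changed genes with 28 false calls. The interaction test recovered 98% with 30 false calls (19688 genes). In both simulations the false calls were more than 0.05 of all calls. Only 4-fold changes in genes above a count limit were simulated. Recovery of smaller changes, which were most of the calls in these data, was not tested.

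Symbols and spans came from a RefSeq table of TAIR10.1, which is not the build of the files, so no coordinates are printed. Members and gene lists were chosen with earlier results of these data known. Genes are named by rule: the 10 largest rises and falls among genes with a symbol, at least 1 CPM in the higher group, no overlap of replicates and a call without each library; genes with at most 3 counts in 1 genotype and at least 50 in each library of the other; from each list with 3 or more called members the 2 largest changes in each direction called without each library, or the member with the smallest adjusted p where there is none; all called members of lists with fewer calls; and the 5 H3.1 genes. Lists too thinly named in that table, of cytosolic ribosomal proteins and of intracellular immune receptors, were not used here.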

Additional observations from a re-analysis of the deposited data

Results flagged for a closer look

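For 14 of the 20 genes with the largest changes, the effect of S28A in H3.1 differed from its effect in H3.3 by the test of the interaction (edgeR, Benjamini-Hochberg adjusted p under 0.05), as it did for 39.0% of all genes tested. The 20 genes were chosen for their change in the H3.1 pair, which is part of this contrast. Their share can therefore not be compared with that of all genes. Values are the log2 effect in H3.1S28A minus that in H3.3S28A. The rise in H3.1S28A exceeded the effect in H3.3S28A for DREB26 by 4.29 ± 0.37 SE (adjusted p = 3.92e-06), for TCH4 by 3.88 ± 0.23 (5.49e-07), for EXLA1 by 1.81 ± 0.20 (1.82e-05), for AGP21 by 1.1 ± 0.19 (0.000576) and for GRP5 by 1.01 ± 0.27 (0.0103). DFR fell less in H3.1S28A than in H3.3S28A, with a difference of 1.55 ± 0.47 (0.0205).

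The effect in H3.1S28A was the lower for ABCG19 (-9.66 ± 0.38, 3.78e-08), BGL2 (-5.39 ± 0.39, 1.35e-06), EXT3 (-4.03 ± 0.32, 2.03e-06), EXT4 (-2.52 ± 0.32, 6.35e-05), scpl31 (-2.19 ± 0.61, 0.0128), AGL15 (-2.10 ± 0.69, 0.0297), KNAT1 (-1.79 ± 0.42, 0.00479) and GH9B13 (-1.32 ± 0.20, 0.000197). The fitted value of ABCG19 depends on the prior count, because H3.1S28A held 2 counts, and was -12.90 and -8.35 without H3.1S28A replicate 1 and 2. The scpl31 difference was -3.15 and -1.45 in those fits. The AGL15 difference was lost on leaving out any of 7 of the 8 libraries, with adjusted p from 0.0566 to 0.304 (-1.14 without H3.3S28A replicate 1), and by DESeq2 (0.0554). It was kept without H3.3S28A replicate 2 (-2.63, 0.00681). The DFR difference was 2.41 without H3.1 replicate 2 and 1.02 without H3.1 replicate 1, called in both, and was lost without H3.3S28A replicate 1 (0.0836) and by DESeq2 (0.0991). H3.3S28A replicate 2 stood apart in its share of organelle counts, at 0.884% against 0.0556% to 0.153% in the other 7 libraries.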

How the results depend on the processing

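The count of higher genes, 1562, was between 1247 and 1776 under the 7 settings that kept all 4 libraries. For lower genes DESeq2 gave 603 in place of 998, and 130 in place of 219 at least 2-fold lower; the cause was not tested. Leaving out single libraries gave 777 to 1966 higher genes, 375 to 1514 lower genes, 176 to 402 at least 2-fold higher and 143 to 315 at least 2-fold lower; the cause was not tested. The share of higher among all calls was 61.0% as fitted, 67.4% by DESeq2 and 56.3% with the span trend removed. The interaction count, 7829, was between 6209 and 8208 under its alternatives. Of the 110 named genes, 9 lost their call by DESeq2, 6 with the span trend removed, 1 in the fit of all 8 libraries and 6 to 21 without a single library, and no named gene changed sign past the threshold. Of the 42 gene lists with at least 3 calls, the number of calls fell over 1.5-fold in 25 and 26 without H3.1 replicate 1 and 2 and in 6 without H3.1S28A replicate 1, and rose as much in 3 and 6 without H3.1S28A replicate 1 and 2. Same-numbered libraries did not deviate together (correlation -0.00308 across 18974 genes). Each genotype gave a single such deviation per gene, so this cannot exclude that same-numbered libraries were prepared together. With replicate number as a block there were 1710 higher and 1126 lower genes, and 237 and 209 at least 2-fold, with 7520 interaction calls. Depth limits genes of low count, since 8442 of the 27416 genes were below the filter.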
